A study of Homo sapiens with 12 samples.

Results

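ATF4 stress response genes are the genes that cells switch on, through the transcription factor ATF4, when protein synthesis is restrained by a shortage of amino acids, misfolded protein in the endoplasmic reticulum (ER) or other stress. The 10 genes described here (ATF4, ATF5, ATF3, CEBPB, DDIT3, TRIB3, DDIT4, SESN2, CHAC1 and ASNS) were chosen by symbol, and all 10 had a row among the 16389 genes counted. They were measured by RNA-seq in HepG2 cells, an established human liver cancer line, in 12 libraries. Cells were kept for 48 h in medium with 5.5 mM glucose (low glucose, LG, 3 libraries) or 20 mM glucose (high glucose, HG, 3 libraries). The same media followed by 1 mM valproic acid (VPA), an inhibitor of histone deacetylases, for 12 h gave the groups LGV and HGV, with 3 libraries each. All groups come from 1 line, grown with fetal bovine serum. Neither the labels nor the methods say that the 3 replicates were separate cultures, so p values measure the spread between these libraries, which may be technical. The sources used here do not say if the untreated groups were collected at the start or the end of the VPA period, so the drug and the time in culture cannot be told apart.

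As background, stress kinases phosphorylate the initiation factor eIF2, which slows translation in general while ATF4 mRNA, with its upstream reading frames, is translated more. ATF4 then binds, often with a C/EBP partner, to a composite C/EBP-ATF element near its target genes. The targets raise amino acid supply, hold back the growth kinase complex mTORC1 and, when stress lasts, favour cell death. In liver cells the pathway responds to amino acid supply, to the secretory load of the ER and to mitochondrial stress. RNA counts report none of the translational step.

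The C/EBP-ATF element was looked for as the letters TGATGNAA on both strands, from 1000 bases upstream to 1000 bases downstream of the start of 1 annotated transcript per gene, in the GRCh37 sequence. It was found in 7 of the 10 genes, and in 17.99% of the 15828 counted genes with an annotated start. The exact core TGATGCAA, which is contained in the first motif, was found in 6 of the 10 and in 3.51% of all. For each of the 7 genes 1 or 2 of the matches are printed, read along the strand of the gene with the match in capitals, because this was the one motif of those searched that members held. A core written TTGCATCA is the same element on the opposite strand.
ATF3, chr1:212782074-212782097, plus strand: aaaaggggTGATGCAAcgctctcc
ATF3, chr1:212781892-212781915, plus strand: ccccgaacTTGCATCAccagtgcc
DDIT3, chr12:57914588-57914611, minus strand: gccaaacaTTGCATCAtccccgcc
TRIB3, chr20:361528-361551, plus strand: gctccggtTTGCATCAcccggacc
CHAC1, chr15:41245452-41245475, plus strand: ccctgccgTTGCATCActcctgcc
DDIT4, chr10:74032728-74032751, plus strand: ctcggtccTGATGCAAccgtctgg
SESN2, chr1:28586573-28586596, plus strand: gacccgggTTGCATCAactggcag
ASNS, chr7:97501773-97501796, minus strand: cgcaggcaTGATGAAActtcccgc

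In ATF3 the matches began at positions -21 and -203 from the transcript start, in CHAC1 at -209, in DDIT3 at -306 and in DDIT4 at -942. DDIT3 also had an exact core at 820 and a looser match at 876, both in an intron. The TRIB3 sequence stood 3 times in the annotated UTR, at positions 133, 166 and 199, with identical flanks. The SESN2 match at 553 lay in an intron, with a looser match at -296. The ASNS matches at -68 and -886 have the looser form without the exact core. The ATF3, CHAC1 and DDIT3 matches before the start, and the ASNS match at -68, lie within the annotated span of the gene. Other annotated transcripts of these genes begin further upstream. ATF4, ATF5 and CEBPB had no match in this window, which says only that these letters are not there. The cyclic AMP response element TGACGTCA, found in 4.62% of all windows, and the ER stress element ERSE, found in 0.19%, were found in none of the 10 genes. A match is a description of the sequence and not a measured binding site.

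**Figure D1:**
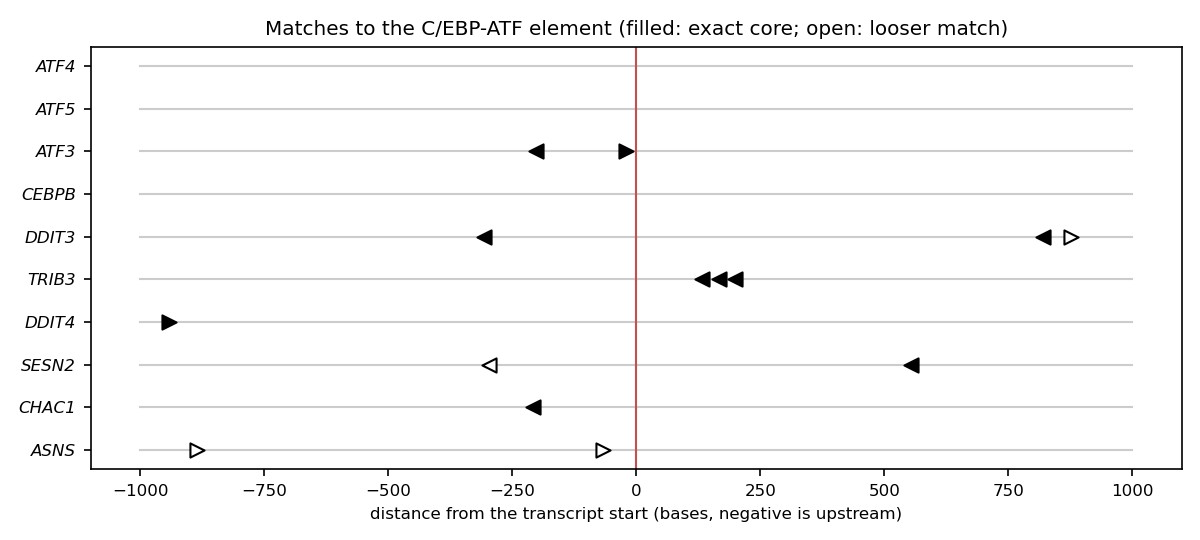
Position of C/EBP-ATF element matches (x axis, bases from the transcript start, negative upstream) in the 10 genes (y axis). Filled arrowheads hold the exact core, open ones the looser motif, and arrowheads pointing left are on the opposite strand. In 7 genes there is at least 1 match, in TRIB3 the 3 matches stand together after the start, and ATF4, ATF5 and CEBPB have none.

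The libraries held from 29798442 to 45572694 counted reads. Levels are in CPM, counts scaled to a common library size with TMM factors, and 3 reads, used as the floor of detection, equalled at most 0.112 CPM on this scale. This floor covers counting error only. The lowest count of any of the 10 genes in any library was 49, in CHAC1. All 9 hepatocyte markers were counted in every library, with ALB between 18900 and 29400 CPM. Their summed level ran from 52000 to 58700 CPM in LG, 53000 to 60900 in HG, 40000 to 41000 in LGV and 47000 to 61600 in HGV. Of 9 markers of other cell types, VWF, COL1A1 and ACTA2 were counted, with ACTA2 the highest at no more than 38.8 CPM. The other 6 (PTPRC, CD68, PECAM1, COL1A2, HBB and KRT5) had no row among the genes counted, whose lowest mean was 10 reads. The sum of VWF, COL1A1 and ACTA2 was 19.8 to 23.1 CPM in LG, 39.1 to 42.3 in HG, 14 to 14.3 in LGV and 23.5 to 30.9 in HGV, so the hepatocyte sum was lower in LGV than in any other group and the second sum did not overlap between groups. ACTA2 made up most of the second sum, with means of 18.7, 37.2, 10.9 and 21.9 CPM in LG, HG, LGV and HGV. COL1A1 went the other way with VPA, from 0.226 to 1.09 CPM in LG and from 0.339 to 1.97 CPM in HG. VWF stayed between 1.93 and 3.85 CPM. The part of these sums in the results was not tested. In bulk RNA, fewer cells of a type and less RNA per cell cannot be told apart.

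The 10 genes covered a wide range of levels. Per kilobase of annotated exon, ATF4 stood highest in LG with 332 ± 57.9 CPM per kb (SD, n = 3), followed by TRIB3 with 267 ± 53.9 and CEBPB with 139 ± 26.1. ASNS had 102 ± 19.4 CPM per kb, DDIT3 51 ± 25.6, SESN2 40.6 ± 6.21 and DDIT4 34.4 ± 6.32. ATF5 had 20 ± 4.34, ATF3 9.38 ± 0.566 and CHAC1 0.919 ± 0.129 CPM per kb. The libraries of neighbours in this order overlapped for ATF4 and TRIB3, for CEBPB and ASNS, and among DDIT3, SESN2 and DDIT4, so these were not separated by more than their spread. With the length of the principal transcript alone, ASNS, at 210 CPM per kb, stood above CEBPB. In HGV the order had changed. ASNS, with 155 ± 26 CPM per kb (SD, n = 3), stood second to ATF4, with 176 ± 13.3, and their libraries overlapped. TRIB3 stood below CEBPB with 72.6 ± 4.93, and ATF5, with 2.25 ± 0.258, was the lowest, below CHAC1 with 3.66 ± 0.805.

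Whether high glucose moved these genes was asked with HG against LG and, in the presence of the drug, HGV against LGV. Each comparison was fitted with edgeR's quasi-likelihood test over all genes, and a gene was called at a false discovery rate (FDR, Benjamini-Hochberg) of 0.05 or less. In HG against LG, 5 of the 10 genes fell (ATF4, ATF5, DDIT3, TRIB3 and SESN2) and 2 rose (CHAC1 and ASNS). Over the 15452 genes tested, 24.7% were called, 12.7% lower and 12% higher. In HGV against LGV the 5 that fell were again ATF4, ATF5, DDIT3, TRIB3 and SESN2, and 3 rose (CHAC1, ASNS and DDIT4), where 40.7% of 16208 genes were called, 19.5% lower and 21.2% higher. The median log2 fold change of the 10 genes was -0.24 in HG against LG, beside 0.011 over all genes tested, and -0.15 in HGV against LGV, beside 0.010. In HG against LG the libraries did not overlap for 6 of the 10 genes (41.2% of all genes tested), and in HGV against LGV for 8 (51.4% of all). A single median does not describe the group, since its genes moved in opposite directions.

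Whether VPA moved them was asked at each glucose level. In HGV against HG, 4 of the 10 genes fell (ATF4, ATF5, TRIB3 and SESN2) and 2 rose (ATF3 and CHAC1), where 46.1% of 16188 genes were called, 20.2% lower and 25.8% higher. The share of the 10 genes called is thus not far above that of all genes. In LGV against LG, 5 fell (ATF4, ATF5, DDIT4, TRIB3 and SESN2) and ATF3 rose, where 41.6% of 15944 genes were called, 19.9% lower and 21.7% higher. The median log2 fold change of the 10 genes was -0.091 in HGV against HG, beside 0.025 over all genes, and -0.43 in LGV against LG, beside -0.006. Libraries did not overlap for 6 of the 10 genes in HGV against HG (54.6% of all genes tested) and for 6 in LGV against LG (50.5% of all). HG libraries enter the first glucose and the first VPA comparison, and LG, LGV and HGV libraries are shared in the same way, so the comparisons are not independent of each other.

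**Figure D2:**
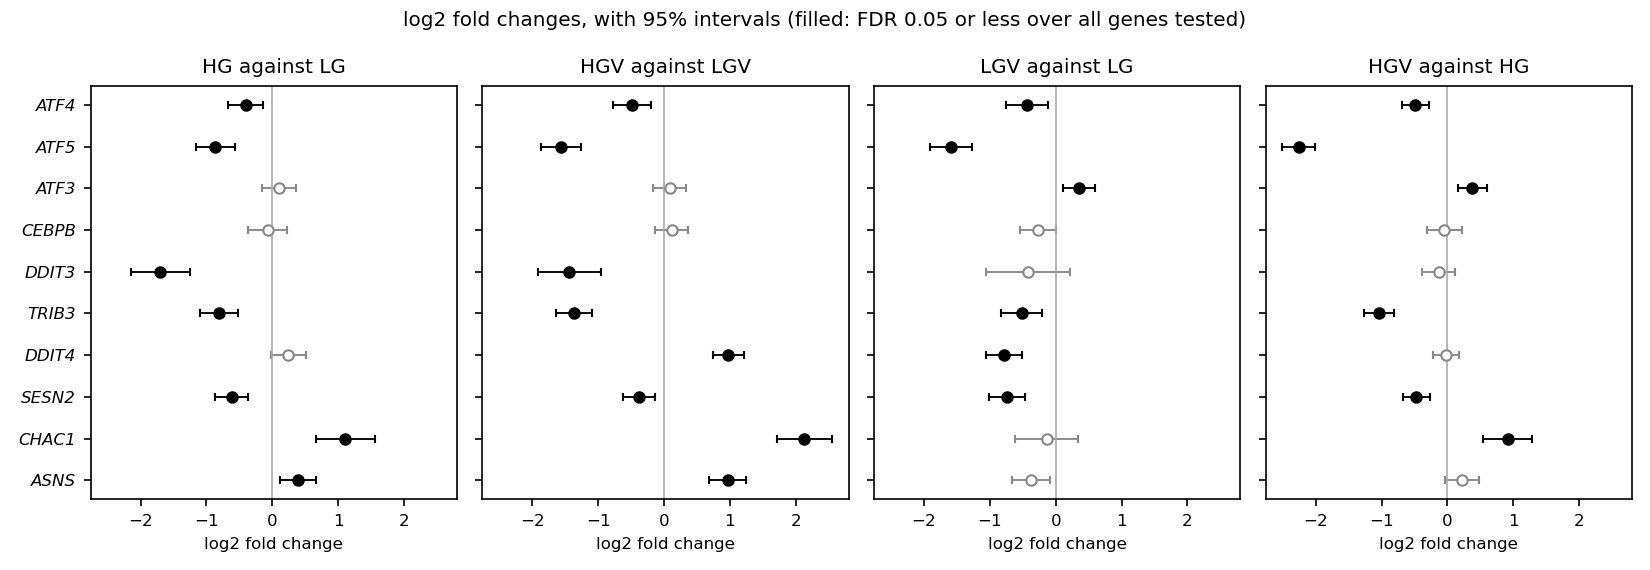
log2 fold change (x axis) of each of the 10 genes (y axis) in the 4 comparisons, with 95% intervals as bars. Filled points have an FDR of 0.05 or less over all genes tested. DDIT3, TRIB3 and ATF5 lie to the left in both glucose comparisons and CHAC1 and ASNS to the right, while ATF5 lies farthest to the left in both VPA comparisons.

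The transcription factors come first. ATF4 itself, on chromosome 22 from 39915700 to 39918688 (GRCh37), had 955, 957 and 694 CPM in the LG libraries and 601, 650 and 686 CPM in HG. With VPA it had 511, 726 and 677 CPM in LGV and 457, 498 and 428 CPM in HGV. The 3 HGV libraries were the lowest of the 12, and the lowest LG library was only just above the highest HG library. ATF4 mRNA fell in all 4 comparisons. The log2 fold change was -0.40 (standard error, SE, 0.14, FDR 0.0354) in HG against LG, -0.49 (0.15, FDR 0.0125) in HGV against LGV, -0.43 (0.16, FDR 0.0419) in LGV against LG and -0.49 (0.11, FDR 0.00241) in HGV against HG. The call in HG against LG was lost without any single replicate except LG replicate 3, with an FDR of up to 0.179 without LG replicate 1, and that in LGV against LG was lost without LG replicate 1, LG replicate 2, LGV replicate 1 or LGV replicate 3 (FDR up to 0.170). Both were also lost with upper quartile factors (FDR 0.0832 and 0.0708) or library sizes (FDR 0.0693 and 0.0971) in place of TMM factors. The call in HGV against LGV was lost without LGV replicate 2, LGV replicate 3 or HGV replicate 3 (FDR up to 0.0697), while the fall in HGV against HG held without each replicate (FDR up to 0.0201).

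ATF5, a relative of ATF4 whose mRNA also carries upstream reading frames and which acts in the mitochondrial stress response, changed most of the 10 genes with VPA. It lies on chromosome 19 from 50431959 to 50437192. LG libraries had 68.1, 61.6 and 43.9 CPM, HG libraries 30.3, 32.1 and 31 CPM, LGV libraries 16.6, 21.8 and 18.7 CPM, and HGV libraries 5.95, 7.35 and 6.21 CPM. No library of any group overlapped another group, and the order was LG, HG, LGV and HGV. With VPA the log2 fold change of ATF5 was -2.26 in HG (SE 0.13, FDR 6.37e-08), a 4.78-fold drop, and -1.59 in LG (SE 0.16, FDR 2.85e-06), a 3.01-fold drop. With glucose it was -0.87 (SE 0.15, FDR 0.000495) without the drug and -1.56 (SE 0.16, FDR 1.15e-06) with it. These 4 calls held without each replicate, with an FDR of at most 0.0135. Exons of ATF5 share 565 bases with NUP62 on the other strand in the annotation used here, and the sources do not give the strand setting of the read counting.

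ATF3, a stress-induced repressor and activator of the same family (chromosome 1 from 212738676 to 212794119), behaved differently. It had between 35.1 and 39.5 CPM in LG and between 36.9 and 41.2 CPM in HG, and these groups overlapped. LGV libraries had 46.4, 53.9 and 42.7 CPM, and HGV libraries 51.3, 56.5 and 45.8 CPM, above every untreated library. ATF3 rose with VPA by 0.37 (log2) in HG (SE 0.11, FDR 0.0159) and by 0.36 in LG (0.12, FDR 0.0306). The first call was lost without HG replicate 1 (FDR 0.0628) or HG replicate 3 (FDR 0.0501), and the second without LG replicate 1, LG replicate 3 or LGV replicate 2 (FDR up to 0.175). For glucose its log2 fold change was 0.10 without VPA, with an interval of -0.16 to 0.36 (95%), and 0.086 with VPA, with an interval of -0.16 to 0.34.

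CEBPB encodes a C/EBP factor that pairs with ATF4 (chromosome 20 from 48807367 to 48809205). It ran from 207 to 303 CPM in LG, 192 to 273 in HG, 198 to 223 in LGV and 212 to 262 in HGV, and all 4 groups overlapped. It was not called in any comparison. Its log2 fold change lay between -0.27 (LGV against LG, interval -0.54 to 0.007, FDR 0.143) and 0.12 (HGV against LGV, interval -0.13 to 0.36, FDR 0.491). Without LG replicate 2, CEBPB had -0.40 in LGV against LG and passed (FDR 0.0233). Exons of CEBPB share 231 bases with the antisense RNA CEBPB-AS1.

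DDIT3, which encodes the pro-apoptotic factor CHOP, showed the largest fall with glucose of the 10 genes in HG against LG. It lies on chromosome 12 from 57910371 to 57915520. LG libraries had 105, 44.1 and 50.8 CPM and HG libraries 22, 19.2 and 19.2 CPM. LGV libraries had 78.5, 28.4 and 40.4 CPM and HGV libraries 18, 16.4 and 20.6 CPM. Every library in low glucose medium was above every library in high glucose medium, with or without the drug. Replicate 1 was the highest of its group in LG and in LGV, and the SD was 50.2% of the mean in LG and 53.2% in LGV, against 7.97% in HG and 11.8% in HGV. DDIT3 fell by 1.70 (log2) in HG against LG (SE 0.23, FDR 4.04e-05), a 3.25-fold drop, and by 1.44 in HGV against LGV (0.24, FDR 0.000182). Without LG replicate 1 the first value was -1.20 (FDR 0.000488), and without LGV replicate 1 the second was -0.93 (FDR 0.000583). For VPA the value was -0.14 in HG (interval -0.39 to 0.12, FDR 0.414) and -0.42 in LG (interval -1.07 to 0.22, FDR 0.333). The latter moved with replicate 1, since it was 0.055 without LG replicate 1 (FDR 0.918) and -0.93 without LGV replicate 1 (FDR 0.0221). Each LGV library was below the LG library of the same number, and with a replicate block the fall passed (FDR 0.00498). The sources do not say that replicate numbers pair libraries. Exons of DDIT3 share 355 bases with the methionyl-tRNA synthetase gene MARS (MARS1 in the annotation) on the other strand.

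TRIB3, a pseudokinase that CHOP and ATF4 induce and that restrains ATF4 in turn (chromosome 20 from 343479 to 378203), fell in all 4 comparisons. It had 1047, 896 and 693 CPM in LG and 427, 531 and 519 CPM in HG. LGV libraries had 505, 655 and 663 CPM and HGV libraries 222, 255 and 240 CPM. The HGV libraries were below all others, and LGV overlapped HG. TRIB3 fell by 0.81 (log2) in HG against LG (SE 0.15, FDR 0.000657) and by 1.36 in HGV against LGV (0.14, FDR 1.35e-06), which is a 2.57-fold drop. With VPA it fell by 1.04 in HG (0.11, FDR 1.27e-05) and by 0.52 in LG (0.16, FDR 0.0171). The last of these calls was lost without LG replicate 1 (FDR 0.115) or LGV replicate 1 (FDR 0.0747).

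**Figure D3:**
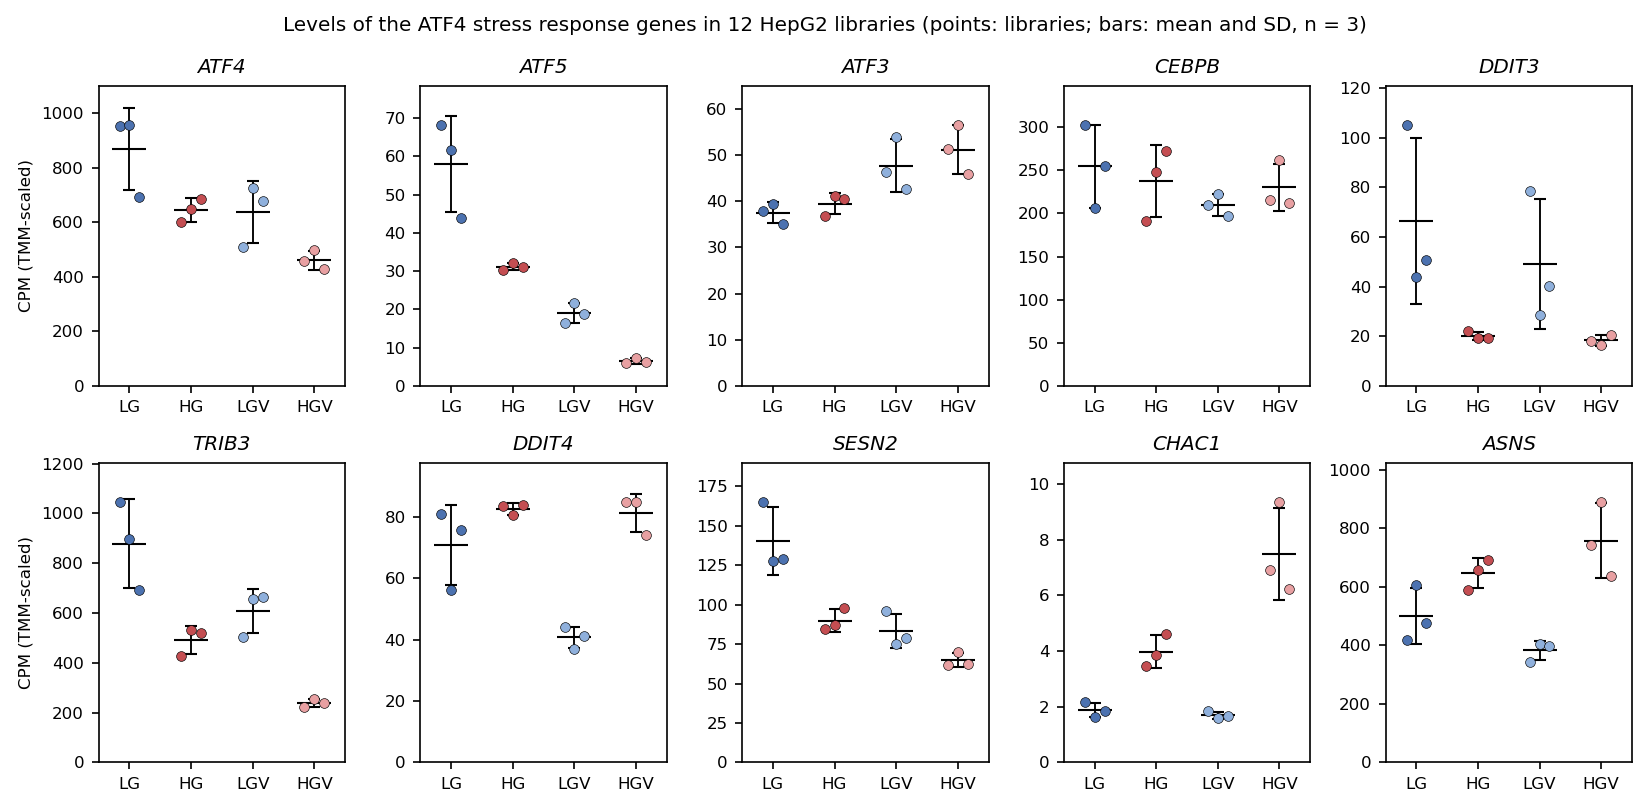
CPM (y axis, from 0, scaled with TMM factors) of the 10 genes in LG, HG, LGV and HGV (x axis), with 1 point per library and bars for the mean and SD (n = 3). ATF5 steps down from group to group, DDIT3 is high in low glucose medium with replicate 1 apart, DDIT4 is lowest in LGV, and CHAC1 is highest in HGV.

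DDIT4 and SESN2 both encode inhibitors of mTORC1, and they differed. DDIT4 (chromosome 10 from 74033678 to 74035794) had 80.9, 56.1 and 75.5 CPM in LG and 83.5, 80.4 and 83.9 CPM in HG. In LGV it had 44.1, 37.1 and 41 CPM, below every other library, and in HGV 84.8, 84.9 and 73.9 CPM. DDIT4 fell with VPA by 0.79 (log2) in LG (SE 0.14, FDR 0.000457), while in HG the value was -0.025 (interval -0.22 to 0.17, FDR 0.859). It rose by 0.98 in HGV against LGV (0.12, FDR 1.10e-05), and in HG against LG the value was 0.25 (interval -0.021 to 0.51, FDR 0.194). The calls held without each replicate.

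SESN2, on chromosome 1 from 28586029 to 28609002, binds the amino acid leucine in its role as a sensor. It had 165, 128 and 129 CPM in LG, 84.7, 87.1 and 98.1 CPM in HG, 95.9, 75 and 79.2 CPM in LGV and 61.8, 70.2 and 62.6 CPM in HGV. LG was highest and HGV lowest with no overlap, and HG and LGV overlapped. SESN2 fell by 0.62 (log2) in HG against LG (SE 0.13, FDR 0.00226), by 0.74 in LGV against LG (0.14, FDR 0.000578) and by 0.47 in HGV against HG (0.10, FDR 0.00263). In HGV against LGV it fell by 0.38 (0.13, FDR 0.0213), a call that was lost without LGV replicate 1, HGV replicate 1 or HGV replicate 3 (FDR up to 0.0826) and with upper quartile factors (FDR 0.0769) or library sizes (FDR 0.0861) in place of TMM factors.

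CHAC1, which degrades glutathione, was the least abundant of the 10 genes in LG and rose with glucose. It lies on chromosome 15 from 41245160 to 41248710. The counts were 58, 66 and 72 in LG, 109, 129 and 165 in HG, 61, 49 and 62 in LGV and 225, 394 and 212 in HGV. These stood for 2.17, 1.65 and 1.84 CPM in LG, 3.46, 3.86 and 4.62 CPM in HG, 1.83, 1.59 and 1.66 CPM in LGV, and 6.9, 9.37 and 6.24 CPM in HGV. Every HGV library was above every HG library and these above every low glucose library. CHAC1 rose 2.16-fold in HG against LG (log2 1.11, standard error 0.23, FDR 0.00207) and 4.38-fold in HGV against LGV (log2 2.13, 0.21, FDR 1.13e-06). With VPA it rose by 0.92 (log2) in HG (0.19, FDR 0.00177), and in LG the value was -0.14 (interval -0.62 to 0.34, FDR 0.694). The 3 calls held without each replicate.

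ASNS makes asparagine and is a long-known target of ATF4 (chromosome 7 from 97480989 to 97501854). It had 420, 605 and 476 CPM in LG and 591, 659 and 693 CPM in HG, with LG replicate 2 inside the HG range. LGV libraries had 345, 406 and 398 CPM, below all others, and HGV libraries 745, 892 and 638 CPM, overlapping HG. ASNS rose by 0.97 (log2) in HGV against LGV (SE 0.15, FDR 6.18e-05), a call that held without each replicate. In HG against LG it rose by 0.39 (0.14, FDR 0.0451), and this call was lost without LG replicate 1, LG replicate 3 or any of the HG replicates (FDR up to 0.177). With VPA the value was -0.37 in LG (interval -0.66 to -0.091, FDR 0.0508), just short of the threshold, and 0.23 in HG (interval -0.030 to 0.48, FDR 0.178). The first passed without LG replicate 1 (FDR 0.0292) or LG replicate 3 (FDR 0.0424), with no filter on counts (FDR 0.0496), with the likelihood ratio test (FDR 0.0310), with DESeq2's Wald test (FDR 0.0337) and in 1 fit of all 12 libraries (FDR 0.0356), and had an FDR of up to 0.229 in the settings where it did not pass. The second passed when libraries were scaled by size alone (FDR 0.0347). Exons of ASNS share 2415 bases with an annotated lncRNA on the same strand that was not analysed here.

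Whether VPA acted differently at the different glucose levels was asked with an interaction term, fitted to all 12 libraries. None of the 10 genes passed in edgeR's quasi-likelihood test, and 7 of all 16389 genes did (0.0427%, with 0.0244% higher and 0.0183% lower). At an unadjusted p under 0.05 there were 5 of the 10 (DDIT4, CHAC1, ASNS, ATF5 and TRIB3), against 11.3% of all genes. The interaction was 0.77 on the log2 scale for DDIT4 (SE 0.18, FDR 0.0889), 1.06 for CHAC1 (0.30, FDR 0.154), 0.61 for ASNS (0.20, FDR 0.230), -0.65 for ATF5 (0.22, FDR 0.233) and -0.51 for TRIB3 (0.21, FDR 0.344). Positive values mean a higher level in HGV than the separate effects of glucose and VPA add up to. With edgeR's likelihood ratio test DDIT4 passed (FDR 0.0135), as it did with DESeq2's Wald test (FDR 0.0246) and without LG replicate 2 (FDR 0.0157). The different response of DDIT4, CHAC1 and ASNS to VPA at low and high glucose is therefore not shown by the quasi-likelihood test.

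Ratios between members within a library do not depend on how libraries were scaled. These 4 pairs were chosen after their values were seen and are given as a description. Per 100 reads of ATF4 there were 7.13, 6.44 and 6.32 reads of ATF5 in LG, 5.05, 4.94 and 4.52 in HG, 3.24, 3.00 and 2.77 in LGV and 1.30, 1.48 and 1.45 in HGV. The ratio was highest in LG, then HG, LGV and HGV, with no overlap between groups. Per 100 reads of TRIB3 there were 40.2 to 68.6 reads of ASNS in LG, 60 to 68.3 in LGV, 124 to 139 in HG and 265 to 350.4 in HGV. Per 100 reads of SESN2 there were 44 to 58.7 reads of DDIT4 in LG, 46 to 51.8 in LGV, 85.5 to 98.6 in HG and 118 to 137 in HGV. For both pairs LG and LGV overlapped, and HG and HGV were higher and apart. CHAC1 reads per 100 reads of DDIT3 ran from 2.06 to 3.74 in LG, 2.33 to 5.59 in LGV, 15.7 to 24.1 in HG and 30.2 to 57.2 in HGV.

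**Figure D4:**
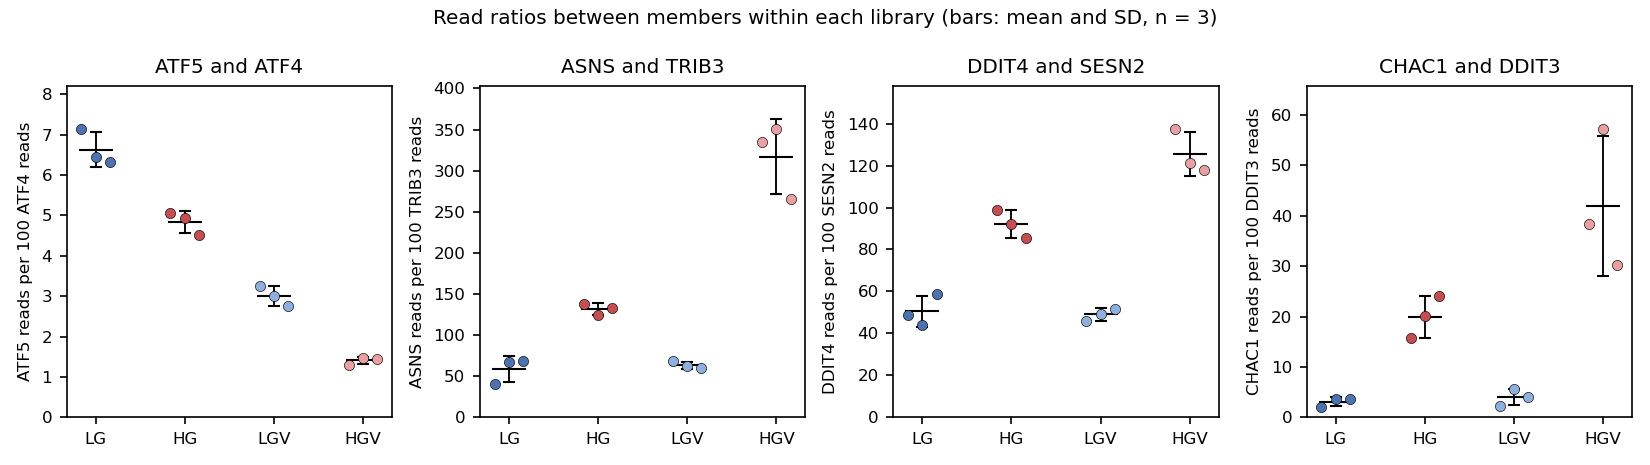
Reads of one gene per 100 reads of another in the same library (y axes, from 0) in LG, HG, LGV and HGV (x axis), with 1 point per library and bars for the mean and SD (n = 3). ATF5 per ATF4 steps down over the groups to 1.30 to 1.48 in HGV, and the other 3 ratios are higher in HG and highest in HGV.

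Likeness between profiles was taken as the root mean square difference in log2 CPM over the 12 libraries, after each gene was centred on its own mean. Among the 10 genes, the differences were smallest for ATF4 and SESN2 (0.241), ATF3 and CEBPB (0.303) and DDIT4 and ASNS (0.308). By the same measure ATF3 varied by only 0.21 and CEBPB by only 0.198 about their own means. The difference between ATF3 and CEBPB is larger than either, so it shows no likeness in pattern. ATF5 and CHAC1 were the least alike (1.75). Among genes with a mean of at least 10 CPM, the 3 closest to ATF4 were DDA1 (0.0696), ATG9A (0.0747) and CSNK1D (0.0748). Those closest to ATF5 were GPER1 (0.109), CX3CL1 (0.225) and AIFM2 (0.288). GPER1 went from 58.9 CPM in LG to 30.1 in HG, 17.5 in LGV and 7.05 in HGV. TRIB3 was closest to HDGF (0.158), SRSF4 (0.168) and SLC51B (0.186), and CHAC1 to E2F1 (0.229), ACSF2 (0.233) and RNASEH2A (0.267). SESN2 was closest to PQLC2 (0.0867), ADRA2C (0.110) and LONP1 (0.117), DDIT4 to ANGEL1 (0.121), NUDCD3 (0.125) and SKIV2L (0.128), and ASNS to UBL7 (0.151), DUT (0.168) and H3F3B (0.169). ATF3 was closest to ZNF473 (0.0851), HIATL1 (0.0912) and C11orf49 (0.0943), and CEBPB to PRDX5 (0.0820), NOC4L (0.0961) and SLC43A2 (0.104). The genes closest to DDIT3 were less close than those of the other members, at COL16A1 (0.417), WARS (0.421) and SLC35B1 (0.426).

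The rest of the pathway was described by lists made from gene symbols. The counts of each list stand beside the share of all genes tested that were called, which was 12.7% lower and 12% higher in HG against LG, 19.5% and 21.2% in HGV against LGV, 20.2% and 25.8% in HGV against HG, and 19.9% and 21.7% in LGV against LG. A list whose counts are near these shares is not set apart by them. Upstream of ATF4, of 16 genes for eIF2 kinases, eIF2 and eIF2B subunits and their phosphatases, 3 fell and none rose in HG against LG, with a median log2 fold change of -0.15 beside 0.011 over all genes. EIF2AK3, the ER stress kinase PERK, was 2.01-fold lower (SE 0.14 on the log2 scale, FDR 7.31e-05), with 51.9 ± 5.53 CPM in LG and 25.5 ± 3.55 CPM in HG (SD, n = 3). PPP1R15A, which returns eIF2 to its unphosphorylated state and is itself induced by the pathway, fell by 0.86 (0.15, FDR 0.000519). In HGV against LGV, 6 fell and 2 rose, with EIF2AK3 at -1.07 and PPP1R15A at -1.09. With VPA, 4 of the 16 fell and none rose in HG, where 20.2% of all genes were lower and 25.8% higher, so the lower count is near that of all genes. EIF2B4 had -0.56 and EIF2S2 -0.44. In LG 5 fell and EIF2AK2, the kinase PKR, rose by 0.55, with EIF2B4 at -0.54.

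Among 20 partner factors with a leucine zipper, 8 of 19 tested fell and 1 rose in HG against LG, led by MAFG with -1.07 and MAFK with -1.11, and 8 fell and 2 rose in HGV against LGV, where FOSL1 had -1.45 and MAFG -1.12. The medians were -0.30 and -0.29, beside 0.011 and 0.010 over all genes. With VPA in HG, 7 of 19 fell and 6 rose, with a median of -0.082 beside 0.025, where 20.2% of all genes were lower and 25.8% higher. CEBPD, another C/EBP factor, fell by 2.12 there (SE 0.22, FDR 7.02e-06) and FOS rose by 1.89. In LG, 5 of 20 fell and 3 rose, with a median of 0.004 beside -0.006, where 19.9% of all genes were lower and 21.7% higher, and CEBPD fell by 1.63, while BATF3 was called higher (FDR 0.000387), from 0.0928 ± 0.0784 to 0.787 ± 0.23 CPM (SD, n = 3), where the LG mean lies near the floor of 3 reads.

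Of 26 other known targets, 25 were tested in HG against LG, where 12 fell and 3 rose, with a median of -0.34 beside 0.011. HERPUD1, a membrane protein of ER-associated degradation that is also induced by other stress sensors, fell from 917 ± 167 to 264 ± 10.7 CPM (SD, n = 3), which is -1.77 on the log2 scale (SE 0.14, FDR 7.46e-08), and MAP1LC3B, which acts in autophagy, fell by 0.88. In HGV against LGV, 14 of 26 fell and 2 rose, with a median of -0.41. HERPUD1 fell by 1.55, while PCK2, the mitochondrial enzyme that makes phosphoenolpyruvate, rose by 1.71 (0.17, FDR 9.93e-07), from 163 ± 45.3 CPM in LGV to 538 ± 54.1 CPM in HGV (SD, n = 3). With VPA, 7 of 25 were lower and 5 higher in HG, where 20.2% of all genes were lower and 25.8% higher, and 8 of 26 were lower and 4 higher in LG, where 19.9% and 21.7% were. NUPR1, a small chromatin-binding stress protein, fell with VPA (log2 -2.99 in HG, SE 0.15, FDR 3.50e-08, and -2.68 in LG), and TRIB2, a relative of TRIB3, rose by 1.69 in HG and by 1.72 in LG.

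Of 10 genes of amino acid synthesis and one-carbon metabolism, SHMT2 alone was called in HG against LG, at -0.45, and 3 rose and 1 fell in HGV against LGV, led by GOT1 with 0.65 and ALDH1L2 with 0.67. With VPA, 8 of the 10 fell in LG, with a median of -0.54 beside -0.006. In HG 4 fell and 1 rose (GOT1, 0.80). SHMT2, the mitochondrial enzyme that turns serine into glycine, fell by 1.19 in LG (SE 0.13, FDR 4.36e-06) and by 1.14 in HG. Of 10 amino acid and related transporters, 6 fell and 1 rose in HG against LG, and 5 fell and 1 rose in HGV against LGV. SLC3A2, the heavy chain shared by several of these transporters, fell from 1250 ± 270 to 377 ± 36.1 CPM (SD, n = 3) in HG against LG (log2 -1.70, FDR 4.54e-07) and by 1.20 in HGV against LGV. SLC33A1, counted here as a related transporter, fell by 0.86 in HG against LG. SLC6A9, a glycine transporter, fell with VPA (log2 -2.91 in HG and -2.48 in LG) and in HGV against LGV (-1.01). The transporter SLC43A1 fell with VPA by 1.01 in HG and by 1.25 in LG. With VPA, 4 of the 10 transporters fell and 1 rose in HG, and 6 fell and 1 rose in LG.

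Of 20 cytosolic aminoacyl-tRNA synthetases, which load amino acids onto tRNA, 11 fell with VPA in HG and 11 in LG, with medians of -0.37 and -0.35, and 1 rose in HG. In HG the leading genes were DARS with -0.73 and GARS with -0.69, and in LG VARS with -0.88 and YARS with -0.69. With glucose 3 fell and 1 rose in HG against LG, and 5 fell and 1 rose in HGV against LGV. WARS led both, with -1.35 and -1.31, and HARS had -0.59 and -0.65. By contrast, of 18 genes of the ATF6 and XBP1 arms of the ER stress response, 17 fell and none rose in HG against LG, with a median of -1.69, and 17 fell in HGV against LGV, with a median of -1.81. Earlier results on these samples had shown ER chaperones lower in HG, so this count is no independent evidence. In HG against LG, MANF had -2.77 and SDF2L1 -2.85, and in HGV against LGV, MANF had -2.63 and DNAJB9 -1.83. With VPA 6 of these genes rose and 1 fell in HG, and 3 rose and 1 fell in LG. The gene that fell was XBP1, with -0.88 and -0.78, and DNAJB11 rose by 0.81 and 0.62.

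**Figure D5:**
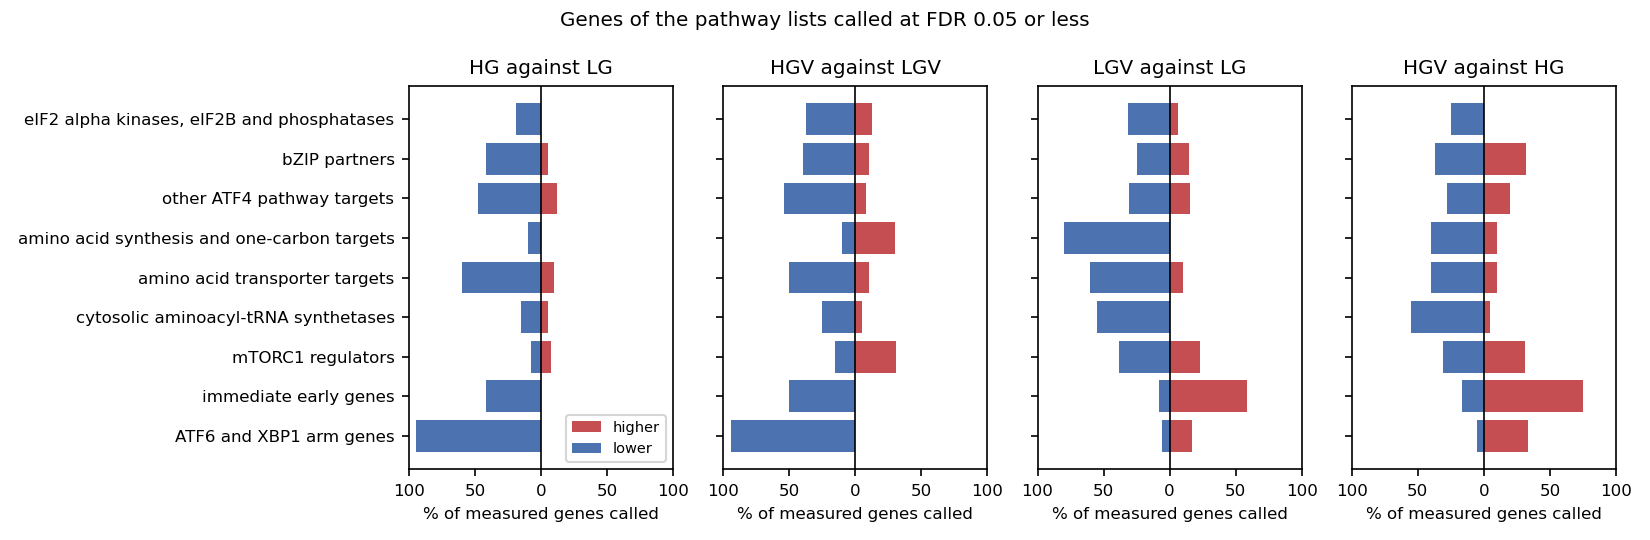
Share of the measured genes of each list (x axis, percent) that were called higher (red, to the right) or lower (blue, to the left) at an FDR of 0.05 or less in the 4 comparisons. ATF6 and XBP1 arm genes are almost all lower in high glucose (17 of 18), with or without VPA, and immediate early genes are mostly higher with VPA (9 of 12 in HG and 7 of 12 in LG).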

How the data were processed

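Single-end reads were trimmed by the authors (FASTX Toolkit), mapped to GRCh37 (STAR) and assigned to Ensembl genes (featureCounts). They deposited raw counts for 16389 genes, and the lowest mean over the 12 libraries was 10 reads. The strand setting of the counting is not given in the sources used here. Total counts per library ran from 29798442 to 45572694.

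Genes averaging 10 or more reads over the libraries compared entered the fit in edgeR 4.0.16 under R 4.3.3 (TMM factors, quasi-likelihood F test, dispersion from the libraries compared, FDR of 0.05 or less over all genes tested). Standard errors are the log2 fold change divided by the square root of F, and 95% intervals are normal intervals from them. The test was checked on simulated data. Positions, exon lengths and transcript starts came from GENCODE v44 mapped to GRCh37, which gave a start for 96.58% of the genes. The start was that of the canonical transcript, or of the principal transcript where no canonical one was tagged. The exon models behind the counts may differ.

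The 10 genes, the gene lists and the rule for named genes were chosen with earlier results of these data known. The rule took all 10 genes, the 2 called genes of each list with the smallest p in each pairwise comparison, and the 3 genes closest in profile to each of the 10, by log2(CPM + 0.5). The lists are eIF2 factors, leucine zipper partners, other targets, amino acid synthesis, amino acid and related transporters, tRNA synthetases, ATF6 and XBP1 arm genes, mTORC1 regulators, immediate early genes, and markers of hepatocytes and other cells. Alternatives were DESeq2's size factors, upper quartile factors and library sizes, no filter or 1 CPM in at least 3 libraries, the likelihood ratio test, the Wald test of DESeq2 1.42.0, a replicate block, 1 fit of all 12 libraries, a stricter FDR of 0.01, and each replicate left out in turn.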

Additional observations from a re-analysis of the deposited data

How the results depend on the processing

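Scaling moves these results as a whole: when libraries were scaled by size alone, the median log2 fold change of all genes went from 0.025 to 0.146 in HGV against HG and from -0.006 to 0.156 in LGV against LG, so VPA effects smaller than this depend on the scaling. Over all genes, calls split 2171 higher to 1297 lower (HG against LG), 5182 to 2424 (HGV against HG) and 4500 to 1958 (LGV against LG) with library sizes, and 2458 to 1366 (HG against LG) and 4126 to 2375 (HGV against LGV) with upper quartile factors. Of the 10 genes, 7, 6, 6 and 8 were called in HG against LG, in HGV against HG, in LGV against LG and in HGV against LGV, in that order. Of all genes tested, 24.7%, 46.1%, 41.6% and 40.7% were called. Leaving out each replicate gave 5 to 6, 5 to 6, 4 to 6 and 6 to 8 of the 10 genes. The counts over all genes were then 1933 to 5338, 6083 to 7793, 4942 to 6986 and 4516 to 7228. An FDR of 0.01 left 3 of the 10 genes in LGV against LG (ATF5, DDIT4 and SESN2), beside 4607 of the 15944 genes tested there. It left ATF5, DDIT3, TRIB3, SESN2 and CHAC1 in HG against LG, beside 1852 of all genes. In HGV against LGV it left ATF5, DDIT3, TRIB3, DDIT4, CHAC1 and ASNS, beside 4263. In HGV against HG it left ATF4, ATF5, TRIB3, SESN2 and CHAC1, beside 5461. Without LG replicate 1, 1933 genes were called in HG against LG, and without HG replicate 3, 2076. For the interaction, 0 of the 10 genes were called, 1 with the likelihood ratio test, 1 with DESeq2's Wald test and 0 to 1 when replicates were left out, while the count over all genes was 202 and 162 with those tests, 13 with the block, 1 with library sizes or an FDR of 0.01, and 1 to 217 with replicates left out (217 without LG replicate 2).

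Neither the labels nor the methods say that replicate numbers pair libraries. The deviations of same-numbered libraries from their group means correlated at between -0.288 and 0.449. Those of differently numbered libraries correlated at between -0.545 and 0.54. With 3 libraries in a group these deviations are tied to each other, so this check can neither show nor exclude pairs. With the replicate block, 6 of the 10 genes were called in HG against LG (ATF4 had an FDR of 0.0536), 6 in HGV against HG, 8 in HGV against LGV and 8 in LGV against LG, with DDIT3 (FDR 0.00498) and ASNS (FDR 0.0238) added in the last. Of all genes tested, 3351 of 15452, 8229 of 16188, 7308 of 16208 and 6971 of 15944 were called with the block, in that order.

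Signs turned only for values that were not called. CEBPB had 0.017 (upper quartile) and 0.018 (library sizes) in HG against LG, and 0.012 and 0.072 in HGV against HG. DDIT4 had 0.035 and 0.096 in HGV against HG. CHAC1 had 0.025 with library sizes in LGV against LG. The interaction of ATF3 was -0.00090 with DESeq2's size factors, -1.11e-05 with upper quartile factors, -0.024 with library sizes, -0.0026 with the CPM filter and -0.00076 with the Wald test. With replicates left out, CEBPB ran from -0.18 to 0.083 in HG against LG and from -0.20 to 0.063 in HGV against HG, DDIT4 from -0.057 to 0.040 in HGV against HG, and DDIT3 from -0.93 to 0.055 in LGV against LG. The interaction ran from -0.090 to 0.10 for ATF3, from -0.18 to 0.098 for ATF4 and from -0.21 to 0.81 for DDIT3. Of 850 values of the 10 genes under other settings, 764 kept their direction and side of the threshold, 43 kept the direction and lost the call, 14 gained it and 29 turned sign. The cause was not tested.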

Other observations

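Other lists touch on the roles of these genes. Of 15 regulators of mTORC1, 13 were tested in each comparison. With VPA, 4 of them rose and 4 fell in HG, and 3 rose and 5 fell in LG. Of all genes, 25.8% were called higher and 20.2% lower in HG, and 21.7% and 19.9% in LG. The counts higher are near these shares and the counts lower are above them, by more in LG. This difference was not tested. SESN3, a relative of SESN2, rose by 2.83 on the log2 scale in HG (standard error 0.17, FDR 1.15e-07) and by 2.92 in LG (0.20, FDR 6.71e-08), where SESN2 fell, going from 2.87 ± 0.378 to 20.4 ± 3.77 CPM and from 1.64 ± 0.115 to 12.4 ± 1.47 CPM (SD, n = 3). AKT1S1, a subunit of mTORC1 that inhibits it, fell by 1.59 in HG, and NPRL3, part of a complex that inhibits mTORC1, fell by 1.35 in LG. With glucose, 1 rose and 1 fell in HG against LG (SESN3 with 0.82 and AKT1S1 with -0.48), and 4 rose and 2 fell in HGV against LGV, where SESN3 had 0.70 and AKT1S1 -0.71. Of all genes, 12% were higher and 12.7% lower in HG against LG, and 21.2% and 19.5% in HGV against LGV.

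Of 12 immediate early genes, a class that is transcribed within minutes of a stimulus and to which ATF3 is often counted, 9 rose and 2 fell with VPA in HG (median log2 fold change 0.68, beside 0.025 over all genes), and 7 rose and 1 fell in LG (median 0.76, beside -0.006). Of all genes, 25.8% were called higher and 20.2% lower with VPA in HG, and 21.7% and 19.9% in LG. EGR1 rose by 1.19 and EGR2 by 2.49 in HG, and EGR3 by 2.47 and EGR2 by 2.64 in LG. The starting levels of EGR2 and EGR3 were low, with EGR2 at 0.635 ± 0.0754 CPM in HG and 0.994 ± 0.514 CPM in LG (SD, n = 3). EGR1 started higher, at 56.5 ± 3.44 CPM in HG and 61.8 ± 18.2 CPM in LG (SD, n = 3). EGR3 had 0.656 ± 0.214 CPM in LG (SD, n = 3). With glucose 5 fell and none rose in HG against LG, led by IER3 with -1.13 and FOSB with -1.36, and 6 fell and none rose in HGV against LGV, led by IER3 with -1.39 and KLF6 with -0.86, while ATF3 was not called in either comparison. Of all genes, 12.7% were lower and 12% higher in HG against LG, and 19.5% and 21.2% in HGV against LGV.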
